A study of Mus musculus with 24 samples.

Results

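The 7 genes described here, Pgpep1l, Vmn2r96, Ly6d, Klhl6, Yes1, Tenm4 and Man1a, gave higher microarray signals in CD4 T cells lacking TRIM28 than in wild-type cells before stimulation and at each of 3 times after it. They were chosen by name, out of 22180 genes tested, because of that difference, so the difference between the genotypes is described for them and carries no test. Affymetrix arrays measured RNA of naive mouse CD4 T cells of TRIM28KO mice (KO) and of their wild-type littermates (WT). The KO groups were unstimulated cells (0 h) and cells stimulated for 4, 24 or 72 h with plate-bound anti-CD3 and soluble anti-CD28, which engage the T cell receptor and its costimulatory receptor, and the WT groups were the same 4. Each of the 8 groups held 3 arrays, 24 in all, and all cells had been enriched on magnetic beads and then sorted. The sources used here name no Cre driver, sort gate or animal age, and do not say whether the 3 arrays of a group came from separate animals, so any p-value covers the spread between these arrays alone, and some of it may be technical.

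TRIM28, also called KAP1, is a corepressor brought to DNA by KRAB zinc finger proteins. It recruits the histone methyltransferase SETDB1, heterochromatin protein 1 and deacetylases, and it is best known for silencing endogenous retroviruses and for keeping imprints. In mice and cells that lack it, genes close to such elements can be transcribed from them. The 7 genes are unrelated in function. Pgpep1l is named for its likeness to pyroglutamyl-peptidase 1, which removes a modified amino acid from the start of peptides. Vmn2r96 belongs to the type 2 vomeronasal receptors, pheromone receptors of sensory neurons. Ly6d encodes a small surface protein of the Ly6 family that marks early progenitors committed to the B lineage, and Klhl6 encodes a kelch-like protein that takes part in B cell receptor signalling and germinal centre formation. Yes1 encodes a tyrosine kinase of the Src family, to which the T cell kinases Lck and Fyn belong. Tenm4 encodes a teneurin, a large transmembrane protein that takes part in neuronal connections and myelination, and Man1a encodes a Golgi mannosidase that trims mannose from N-linked sugar chains.

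The starts of these genes differed widely in sequence. RefSeq windows of 300 bases (build GRCm38.p6, 250 before to 50 after a gene's start) were found for 6 of the 7 genes, and Ly6d had none. The 4 windows printed here span the range of CG content, since CG is the pair of bases that DNA methylation marks in silenced promoters, and every CG is in capitals. They are the windows of Vmn2r96 (chr17:18581477-18581776, plus strand), Klhl6 (chr16:19983000-19983299, minus strand), Pgpep1l (chr7:68264184-68264483, minus strand) and Yes1 (chr5:32610921-32611220, plus strand), each 5′ to 3′ on the gene's strand.
Vmn2r96: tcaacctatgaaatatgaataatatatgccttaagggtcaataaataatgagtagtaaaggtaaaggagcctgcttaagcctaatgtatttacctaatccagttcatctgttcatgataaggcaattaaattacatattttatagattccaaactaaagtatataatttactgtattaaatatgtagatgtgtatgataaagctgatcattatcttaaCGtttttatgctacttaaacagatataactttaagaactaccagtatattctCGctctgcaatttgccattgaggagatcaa
Klhl6: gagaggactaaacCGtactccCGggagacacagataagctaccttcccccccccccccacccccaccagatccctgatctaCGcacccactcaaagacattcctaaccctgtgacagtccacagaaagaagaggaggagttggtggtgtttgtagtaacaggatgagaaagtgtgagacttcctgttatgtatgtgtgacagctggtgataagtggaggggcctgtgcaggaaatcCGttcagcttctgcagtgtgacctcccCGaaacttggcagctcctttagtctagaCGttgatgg
Pgpep1l: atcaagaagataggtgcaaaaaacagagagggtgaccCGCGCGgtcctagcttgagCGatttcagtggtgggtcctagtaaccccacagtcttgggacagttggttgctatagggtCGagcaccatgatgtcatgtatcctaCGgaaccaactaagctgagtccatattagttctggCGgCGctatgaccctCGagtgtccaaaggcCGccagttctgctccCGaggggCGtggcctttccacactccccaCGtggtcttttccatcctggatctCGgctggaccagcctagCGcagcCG
Yes1: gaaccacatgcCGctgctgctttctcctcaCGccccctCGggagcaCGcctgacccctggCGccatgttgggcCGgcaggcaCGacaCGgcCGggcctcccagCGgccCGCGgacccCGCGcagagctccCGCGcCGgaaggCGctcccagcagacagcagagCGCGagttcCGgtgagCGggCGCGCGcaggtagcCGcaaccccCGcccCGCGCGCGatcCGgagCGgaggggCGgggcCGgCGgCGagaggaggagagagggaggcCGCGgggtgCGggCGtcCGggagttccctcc
The window of Vmn2r96 held 2 CG and was 29% G or C, whereas that of Yes1 held 42 CG and was 77% G or C. Between them, Klhl6 had 6 CG, Pgpep1l 16 and Man1a 38, and the 2 windows listed for Tenm4 had 6 and 12. Over all 32851 windows the median was 7 CG and 52.67% G or C, and 23.31% of windows had as few CG as Vmn2r96 or fewer, against 97.39% at or below Yes1. The motif TATAAA, searched on both strands, stood in the window of Vmn2r96 alone among these genes, and in 13.62% of all windows. In the printed strand of Vmn2r96 the match reads TTTATA, so the motif lies on the opposite strand. The 7 genes thus held both genes with CG-rich starts, Yes1 and Man1a, and one with a start poor in CG, Vmn2r96.

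The targeted gene checks the labels. Trim28 was at 5.16 ± 0.26, 5.32 ± 0.15, 5.61 ± 0.07 and 5.55 ± 0.32 in KO at 0, 4, 24 and 72 h, and at 7.78 ± 0.07, 8.42 ± 0.05, 9.19 ± 0.09 and 8.64 ± 0.13 in WT (log2 intensity, SD, n = 3 arrays each). The KO arrays lay below the WT arrays at every time, and the sources used here do not place the probes relative to the deletion. Over 7 measured of 8 listed CD4 T cell markers, the summed linear intensity was 11816 to 11949, 11071 to 11622, 10234 to 11390 and 9050 to 10033 in KO at 0, 4, 24 and 72 h, against 12758 to 13464, 11276 to 11827, 10236 to 11141 and 8739 to 8950 in WT. The sum was thus lower in KO at 0 h and higher at 72 h without overlap. Of the 7 markers 3 were called higher and 2 lower in KO at any time by limma, beside 8.34% and 11.5% of all genes. The Y-linked gene Eif2s3y was at 8.0 to 8.69 in the arrays numbered 3 of both genotypes and at 2.14 to 2.75 in those numbered 1 and 2, so each KO group and each WT group held 1 array with a male signature. All levels are log2 values from the authors' robust multi-array average (RMA), and a difference of 1 is a doubling; the signal of one gene cannot be set against that of another, because probes differ.

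Pgpep1l showed the widest separation of the 7. Its level was 8.65, 8.67 and 8.75 in the KO arrays at 0 h, against 4.87, 4.19 and 4.75 in the WT arrays. After 4 h the KO arrays read 9.39, 9.18 and 9.01, against 5.13, 4.71 and 4.65 in WT, and after 24 h 9.02, 8.81 and 8.74, against 4.59, 4.17 and 3.69 in WT. At 72 h the level was 7.21, 6.72 and 6.98 in KO, against 3.80, 3.26 and 3.57 in WT. The lowest of the 12 KO arrays, at 6.72, lay above the highest of the 12 WT arrays, at 5.13. The differences were 4.09, 4.36, 4.71 and 3.42 on the log2 scale (KO over WT, SE of the limma fit 0.19 each), or 17-fold, 20.6-fold, 26.1-fold and 10.7-fold. KO cells at 24 h overlapped those at 4 h and those at 0 h, but KO cells at 4 h lay wholly above KO cells at 0 h, and KO cells at 72 h stood apart below all of them. In WT, each group overlapped the next in the order of levels.

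Vmn2r96 was lower at 24 and 72 h than before in both genotypes. Unstimulated KO arrays gave 6.80, 6.40 and 6.02, against 3.61, 3.19 and 3.28 in WT, and those at 4 h 6.48, 5.67 and 6.53, against 3.37, 3.85 and 3.35 in WT. At 24 h the values were 4.74, 4.50 and 4.40 in KO, against 2.74, 2.12 and 2.07 in WT, and at 72 h 4.29, 4.18 and 3.73 in KO, against 2.02, 2.59 and 2.12 in WT. Within each time KO was above WT, but the lowest KO array at 72 h, at 3.73, lay below the highest WT array at 4 h, at 3.85. The KO over WT difference was 3.05, 2.70, 2.24 and 1.83 (SE 0.23). The order of levels was the same in both genotypes apart from its first place: 0 h and 4 h, which overlapped, stood above 24 h and 72 h. Vmn2r96 has many close relatives in the genome, and whether its probes also bind RNA of those relatives was not tested.

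Ly6d followed a zigzag course in both genotypes, with means lower at 4 h, higher at 24 h and lower again at 72 h. Before stimulation it was at 6.81, 6.95 and 7.38 in KO, against 4.92, 4.37 and 5.15 in WT, and after 4 h at 5.89, 5.88 and 5.60 in KO, against 4.22, 4.03 and 4.54 in WT. It reached 8.24, 7.55 and 7.78 in KO at 24 h, against 5.04, 4.72 and 4.63 in WT, and was at 6.63, 6.19 and 6.47 in KO at 72 h, against 3.93, 3.65 and 4.12 in WT. All 12 KO arrays lay above all 12 WT arrays, and none of the 4 KO groups overlapped another. WT at 0 h overlapped WT at 4 and 24 h, and WT at 4 h overlapped WT at 72 h, but WT at 24 h overlapped neither of these last 2. The KO over WT difference was 2.23, 1.53, 3.06 and 2.53 (SE 0.20), which is 4.70-fold, 2.88-fold, 8.34-fold and 5.77-fold.

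Klhl6 had its highest level before stimulation and its lowest at 72 h in both genotypes. It was at 10.82, 10.80 and 11.32 in KO at 0 h, against 9.18, 9.18 and 9.48 in WT, and at 8.22, 8.0 and 8.15 in KO at 72 h, against 6.52, 6.63 and 6.32 in WT. Between these times the KO arrays read 9.82, 9.65 and 9.70 (4 h), then 9.31, 9.14 and 9.19 (24 h), against 8.34, 8.24 and 8.21, then 7.28, 7.07 and 7.0 in WT. KO lay above WT within every time, by 1.70, 1.46, 2.10 and 1.63 (SE 0.11). Across times the genotypes interleaved: KO at 24 h overlapped WT at 0 h, and KO at 72 h overlapped WT at 4 h.

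Yes1 was lowest in unstimulated cells in both genotypes. Unstimulated KO arrays read 4.68, 4.88 and 4.81, against 3.60, 3.12 and 3.47 in WT, and at 4 h the KO arrays read 6.22, 6.84 and 7.08, against 3.78, 3.94 and 3.71 in WT. At 24 h it was 5.81, 5.80 and 6.21 in KO, against 4.64, 4.41 and 4.31 in WT, and at 72 h it was 6.50, 6.97 and 6.81, against 4.80, 4.85 and 4.87. KO lay above WT at each time by 1.39, 2.90, 1.49 and 1.92 (SE 0.17), and KO cells at 0 h overlapped WT cells at 72 h. At 4 h KO cells stood level with KO cells at 72 h, while WT cells at 4 h were still the second lowest group.

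Tenm4 and Man1a had the smallest differences at 24 and 72 h. Tenm4 was at 5.27, 4.30 and 5.36 in unstimulated KO cells, against 3.48, 3.37 and 3.32 in WT, and after 4 h at 5.12, 5.13 and 5.38 in KO, against 3.87, 3.53 and 3.61 in WT. The later arrays read 4.52, 4.93 and 5.01 in KO at 24 h, against 3.53, 3.29 and 3.41 in WT, and 4.39, 5.08 and 5.04 in KO at 72 h, against 3.53, 3.58 and 3.99 in WT. The 12 arrays of each genotype did not overlap, although KO array 2 at 0 h stood well below the other two, and KO at 0 h overlapped the other 3 KO groups. KO at 4 h lay above KO at 24 and 72 h, which overlapped each other. The difference was 1.59, 1.54, 1.41 and 1.13 (SE 0.21). Tenm4 has a second probe set, which lay between 2.33 and 2.92 in all 24 arrays and differed between KO and WT by -0.05, -0.06, -0.05 and -0.27 (SE 0.10), so the rise rests on 1 of its 2 probe sets, and with the mean of both the difference was 0.77, 0.74, 0.68 and 0.43.

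Man1a was measured most tightly. In unstimulated cells it was at 9.78, 9.65 and 9.62 in KO, against 8.66, 8.51 and 8.53 in WT, and at 4 h it was at 9.58, 9.59 and 9.55 in KO, against 8.11, 8.15 and 7.93 in WT. The 24 h arrays read 9.75, 9.63 and 9.59 in KO, against 8.56, 8.53 and 8.63 in WT, and the 72 h arrays 9.54, 9.37 and 9.47 in KO, against 8.53, 8.49 and 8.49 in WT. All KO arrays lay within 9.37 to 9.78 and all WT arrays within 7.93 to 8.66. WT at 4 h, with at most 8.15, lay below the other WT arrays, which read 8.49 or more. KO at 72 h, with at most 9.54, lay narrowly below the other KO arrays, which read 9.55 or more. The difference was 1.12, 1.51, 1.08 and 0.96 (SE 0.07), close to a doubling at 0, 24 and 72 h.

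**Figure D1:**
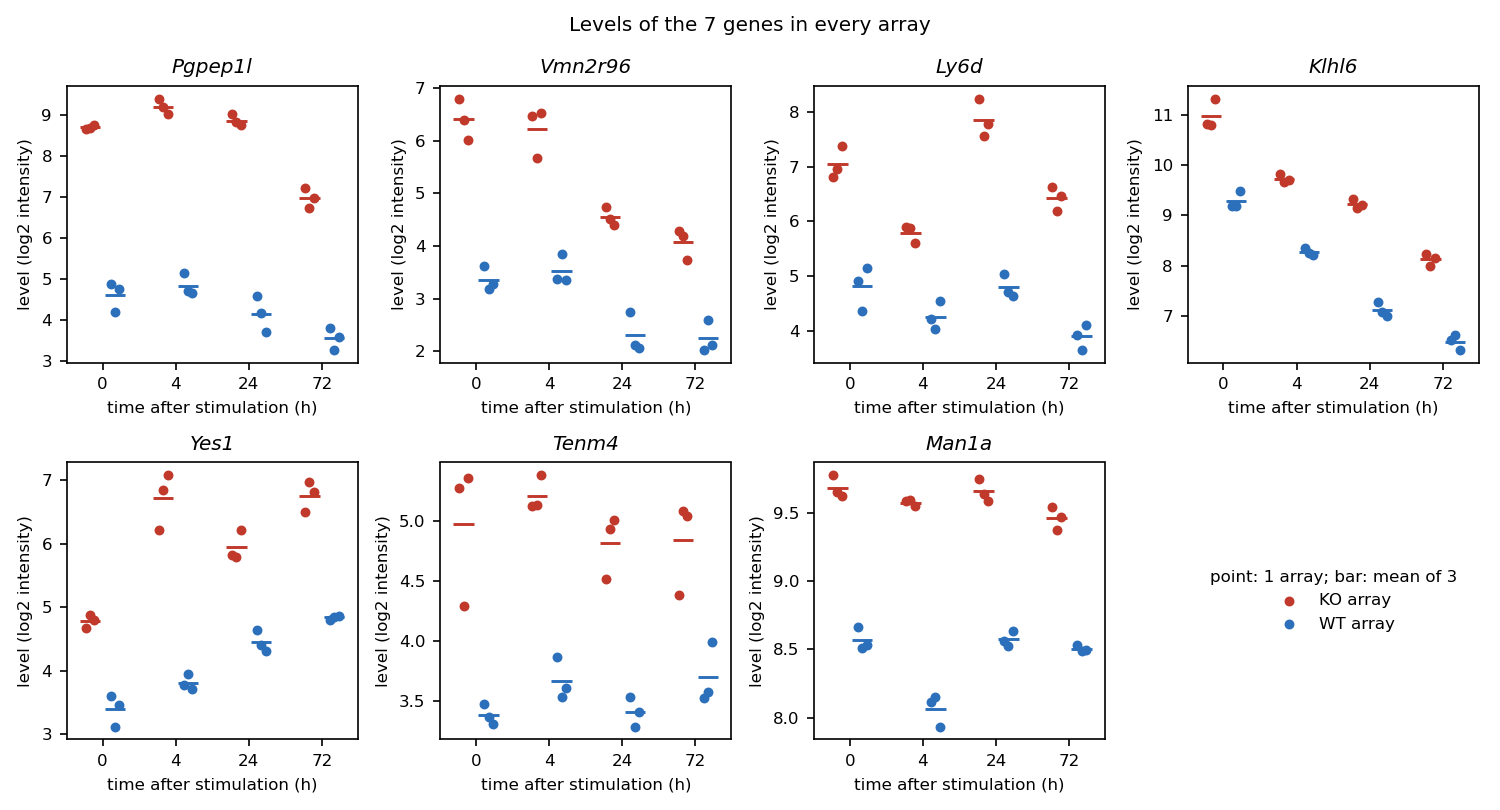
Level of each gene (log2 intensity) in every array against time after stimulation in h, with evenly spaced times. Red points are KO arrays and blue points WT arrays, and each bar is the mean of 3 arrays. Every KO array lies above every WT array of the same time in all 7 panels, and the vertical scales differ between panels.

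Among all genes, a rise at every time was uncommon. The limma fit called 1.76%, 3.3%, 3.9% and 2.56% of genes higher in KO at 0, 4, 24 and 72 h (adjusted p under 0.05 by the Benjamini-Hochberg method), and 0.203%, or 45 genes, at all 4 times. All 7 genes were called at all 4 times, which is how they were chosen. Every KO array lay above every WT array for these 7 at each time, as it did for 9.83%, 9.31%, 8.37% and 12.5% of all genes, and at all 4 times for 114 genes, or 0.514%. Ordered by the smallest of the 4 differences, the 7 stood at places 2, 4, 5, 6, 7, 10 and 13 of the 45. The other places down to the 13th were held by Gm19951 (smallest difference 3.95), the glutathione transferase genes Gstt1 (2.0) and Gstt3 (1.17), BC018473 (1.25), Gm6958 (1.13) and Mir5103 (1.08). The last of the 7 in this order was Man1a with 0.96. Next came Ddt, which encodes D-dopachrome tautomerase, with 0.93 and Nars2 with 0.91. The choice was by name and not by a cut in this order, since genes above Man1a were also left out. In the opposite direction 4 genes were called lower at all 4 times, namely Trim28, Grasp, Marchf6 and Myo10.

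**Figure D2:**
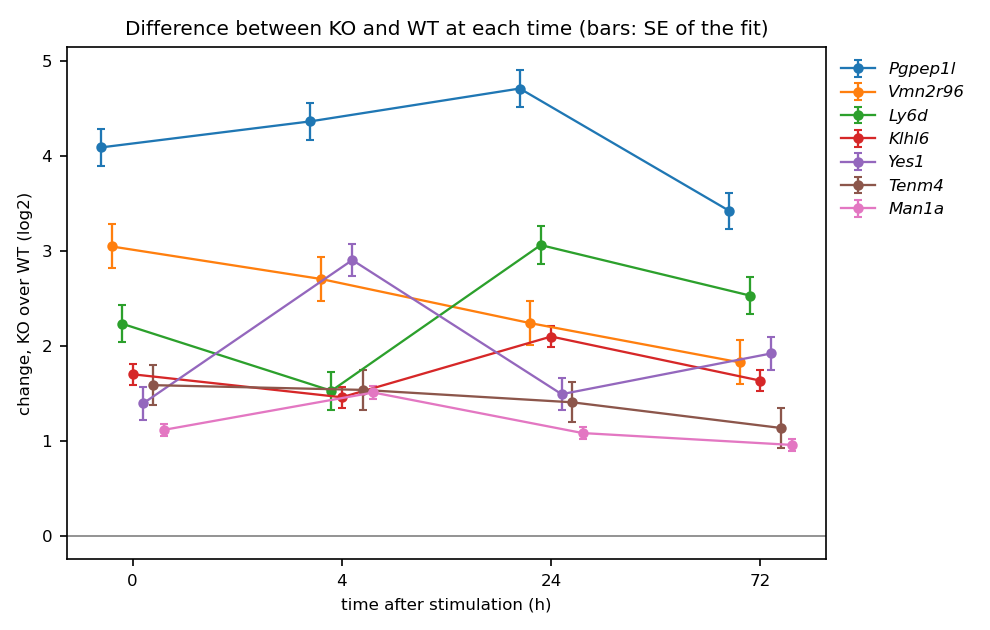
Difference between KO and WT (log2, KO over WT) of each gene against time after stimulation in h, with evenly spaced times and bars of 1 SE. Pgpep1l stays highest, between 3.42 and 4.71, Vmn2r96 declines at each step, Yes1 peaks at 4 h with 2.90, and Man1a lies between 0.96 and 1.51.

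The size of the difference changed with time for 3 of the 7 genes. The genes were chosen for a KO over WT difference at every time. Whether the choice also weighed how the differences compared between times is not known. The test below is built from the same differences in the same arrays, so it is not independent of the choice. Limma's interaction test, which sets the KO response to stimulation against the WT response, called 3 of 21 gene and time pairs, where it called 0.726%, 5.87% and 3.91% of all genes at 4, 24 and 72 h. Yes1 gained 1.51 more in KO than in WT by 4 h (SE 0.24, adjusted p = 0.000956 by limma), since it rose by 1.92 in KO (adjusted p = 6.45e-10) while the WT change of 0.42 did not pass the threshold (adjusted p = 0.0624). That WT change passed under 8 of 38 alternatives, with adjusted p down to 0.0148 by limma, among them leaving out WT array 1 at 0 h (0.52, adjusted p = 0.0382). For Man1a the KO response at 4 h exceeded that of WT by 0.39 (SE 0.09, limma adjusted p = 0.043): WT fell by 0.50 (adjusted p = 4.25e-07) and the KO change of -0.11 did not pass (adjusted p = 0.25). For Vmn2r96 the KO response less the WT response at 72 h was -1.22 (SE 0.33, limma adjusted p = 0.0304), with responses of -2.34 in KO and -1.12 in WT. The WT arrays at 72 h lay at 2.02 to 2.59, below the 40th percentile of the mean levels of all genes (3.24). Low levels are compressed by RMA, and whether this limited the fall of Vmn2r96 in WT was not tested. The WT arrays of Yes1 were also low, at 3.12 to 3.60 at 0 h and 3.71 to 3.94 at 4 h, beside array medians of 3.59 to 3.76. Whether compression limited the rise of Yes1 in WT was not tested.

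These 3 calls differed in how far they rested on single arrays. The call for Yes1 was lost under 1 of 38 alternatives, the one without number 3 in every group (1.25, limma adjusted p = 0.0937). That for Vmn2r96 was lost under 9 of 38 alternatives, among them leaving out KO array 1 (-1.02) or 2 (-1.22) at 0 h, KO array 3 at 72 h (-1.05), WT array 2 (-1.14) or 3 (-1.18) at 0 h, or WT array 2 at 72 h (-1.05), and limma's adjusted p was then 0.0561 to 0.106. That for Man1a was lost under 22 of 38, including 14 of the 24 single arrays, with sizes of 0.33 to 0.45 over all alternatives. The 24 h gain of Ly6d, 0.83 more in KO than in WT (adjusted p = 0.0822), did not pass, nor did any such difference of Klhl6, Pgpep1l or Tenm4, although that of Ly6d passed under 3 of 38 alternatives, including the loss of WT array 2 (1.05) or KO array 3 (1.0) at 0 h, and that of Klhl6 at 24 h passed without KO array 3 at 0 h (0.57, limma adjusted p = 0.0162).

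The response to stimulation within each genotype played no part in the choice of the genes. In KO, 4, 4 and 6 of the 7 were called by limma at 4, 24 and 72 h, beside 31.1%, 34% and 39.7% of all genes, and in WT 3, 3 and 5, beside 34.7%, 39.7% and 40.5%. At any of the 3 times 6 genes were called in each genotype, beside 49.7% of all genes in KO and 54.7% in WT, and the counts in WT at 4 and 24 h were close to the share of all genes. Klhl6 fell throughout, with changes of -1.26, -1.76 and -2.86 in KO and -1.01, -2.16 and -2.79 in WT at 4, 24 and 72 h (SE 0.11, adjusted p at most 2.69e-08). Vmn2r96 fell at 24 and 72 h, with changes of -1.86 and -2.34 in KO and -1.05 and -1.12 in WT (SE 0.23, adjusted p at most 0.00048). Pgpep1l fell at 72 h, with -1.72 in KO and -1.06 in WT (SE 0.19, adjusted p = 2.24e-08 and 4.48e-05). In KO its change at 4 h was 0.50 (adjusted p = 0.049), a call lost under 22 of 38 alternatives.

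Yes1 was the one gene of the 7 that rose with stimulation at 24 and 72 h in both genotypes. It rose by 1.15 and 1.97 in KO and by 1.06 and 1.44 in WT (SE 0.17, adjusted p at most 9.42e-06 by limma). Relative to 0 h, Ly6d in KO changed by -1.25 at 4 h, by 0.81 at 24 h and by -0.62 at 72 h (SE 0.20, adjusted p = 9.58e-06, 0.0016 and 0.0135). In WT it fell by 0.55 at 4 h (adjusted p = 0.032) and changed by -0.91 at 72 h (adjusted p = 0.00039), and its value at 24 h was -0.02. Of these Ly6d calls, that of WT at 4 h was lost without WT array 1 or 3 at 0 h or WT array 1 or 2 at 4 h (-0.50, -0.38, -0.53 and -0.43), and that of KO at 72 h without KO array 3 at 0 h (-0.45) or KO array 2 at 72 h (-0.50). Man1a fell by 0.22 at 72 h in KO (adjusted p = 0.00716), a call lost without KO array 1 at 0 h or KO array 2 at 72 h (-0.18 each). Tenm4 had no called response in either genotype, with changes of -0.16 to 0.23 in KO and 0.02 to 0.31 in WT, although without KO array 2 at 0 h its KO changes at 24 and 72 h were -0.50 and -0.48 (adjusted p = 0.0431 and 0.0455).

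**Figure D3:**
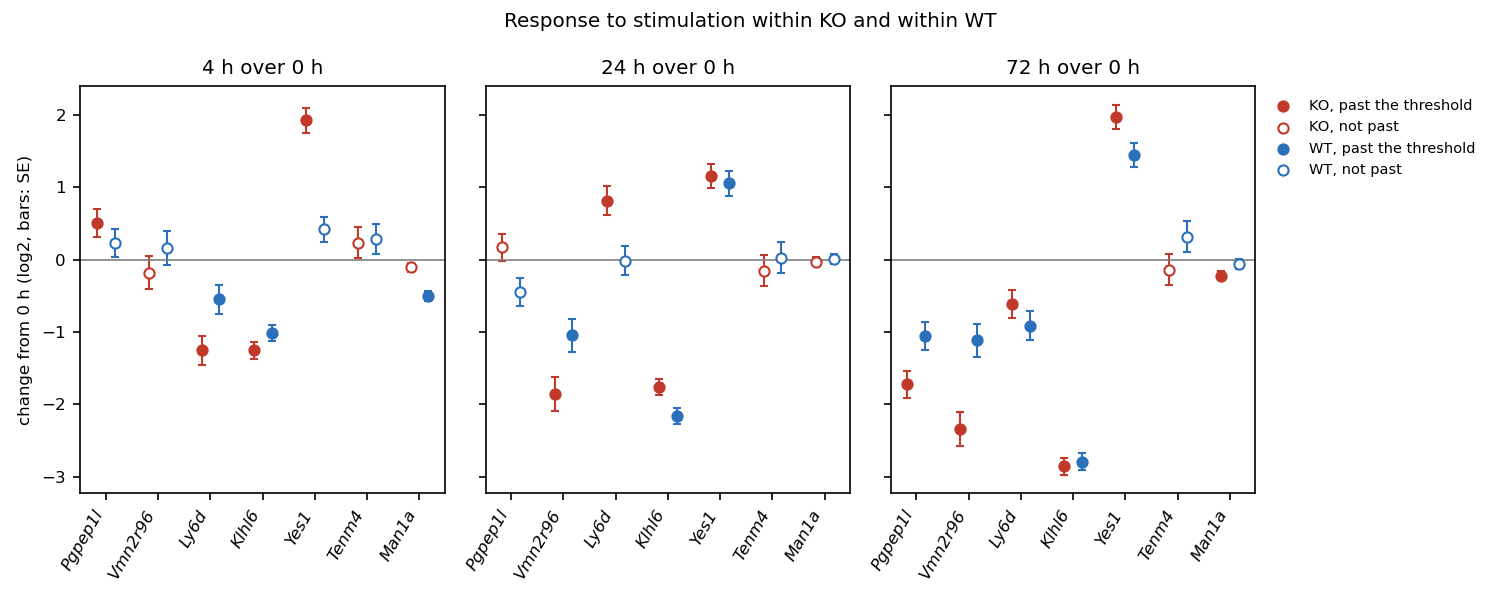
Change from 0 h (log2) at 4, 24 and 72 h for each gene, KO in red left of WT in blue, with bars of 1 SE. Filled points passed an adjusted p below 0.05 in limma and open points did not. Klhl6 falls to a like extent in both genotypes at 72 h (-2.86 in KO, -2.79 in WT), and the largest gap is that of Yes1 at 4 h.

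Some genes beside the 7 on the chromosome were also higher in KO. The 5 nearest tested genes on each side of each gene, 70 in all, were taken in the order of the RefSeq table. Of these, 3, 5, 5 and 4 were called higher in KO by limma at 0, 4, 24 and 72 h (4.29%, 7.14%, 7.14% and 5.71%, beside 1.76%, 3.3%, 3.9% and 2.56% of all genes), and 0, 1, 5 and 4 were called lower (beside 0.577%, 0.834%, 7.38% and 3.78% of all genes). At any of the 4 times 9 of the 70 were called higher and 9 lower, beside 8.34% and 11.5% of all genes. The medians of the 70 changes were -0.02, 0.02, -0.05 and 0.01, beside 0.00, 0.00, -0.05 and 0.01 over all genes.

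The strongest of these lay beside Tenm4 and Ly6d. Nars2, the mitochondrial asparaginyl-tRNA synthetase gene and the fourth tested gene after Tenm4, was at 8.02, 7.31 and 7.98 in KO at 0 h, against 6.01, 6.10 and 6.25 in WT. At 72 h it was at 6.96, 7.24 and 7.23 in KO, against 6.21, 6.23 and 6.26 in WT. It rose in KO by 1.65, 1.66, 0.93 and 0.91 at the 4 times (SE 0.15, limma adjusted p at most 0.000201), without overlap of the genotypes at any time, and its calls held under all 38 alternatives. Nars2 was also the gene whose level followed that of Tenm4 most closely over the 24 arrays (Pearson r = 0.91). Predicted genes, small RNA genes and receptor segments were left out of that ranking.

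Ly6k, a Ly6 family gene best known from testis and sperm and the second tested gene after Ly6d, was at 6.71, 6.34 and 6.18 in KO at 72 h, against 4.18, 4.03 and 3.78 in WT. At 0 h it was at 5.57, 5.61 and 5.08 in KO, against 4.89, 4.45 and 4.60 in WT. It rose in KO by 2.42 at 72 h (SE 0.19, limma adjusted p = 7.6e-10), by 1.14 at 24 h (adjusted p = 0.000157) and by 0.77 at 0 h (adjusted p = 0.0208), while 0.60 at 4 h did not pass (adjusted p = 0.0684). The 0 h call was lost under 8 of 38 alternatives, including the loss of WT array 2 (0.68) or 3 (0.75) or of KO array 1 (0.70) or 2 (0.68). With the mean of the Ly6k probe sets the differences were 0.39, 0.10, 0.60 and 1.24 at 0, 4, 24 and 72 h, so the size of the rise depended on the probe set. Lynx1, a modulator of nicotinic receptors next to Ly6d on its other side, rose by 0.59 and 0.74 at 4 and 24 h (adjusted p = 0.0138 and 0.000935), the first of these not without WT array 1 (0.36) or KO array 3 (0.54) at 4 h. The 8 further neighbours of Ly6d were not called higher at any time.

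Around the other 5 genes the changes were smaller. Klhl24, a second kelch-like gene and the gene next to Klhl6, rose in KO by 0.44 at 4 h and 0.85 at 24 h (SE 0.08, limma adjusted p = 0.00171 and 1.2e-07), but gave -0.20 at 0 h and 0.00 at 72 h. Ppp1cb, a catalytic subunit gene of protein phosphatase 1 next to Yes1, rose by 0.28 and 0.34 at 4 and 72 h, and the ribokinase gene Rbks beyond it by 0.39 at 72 h. Of the 10 vomeronasal receptor genes around Vmn2r96, Vmn2r92 alone was called, with 0.33 at 4 h (adjusted p = 0.0484). Beside Pgpep1l, Fam169b rose by 0.28 at 24 h, and beside Man1a, Gm16998 rose by 0.48 at 0 h. Among the neighbours that fell, Asf1a, a histone chaperone gene near Man1a, changed by -0.49 and -0.50 at 24 and 72 h, and Arrdc4, an arrestin-domain gene near Pgpep1l, by -0.66 at 72 h. The other 7 were Them6, Parl, Pisd, Ddias, Mir708, Gab2 and Gja1, with -0.34 to -0.49.

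**Figure D4:**
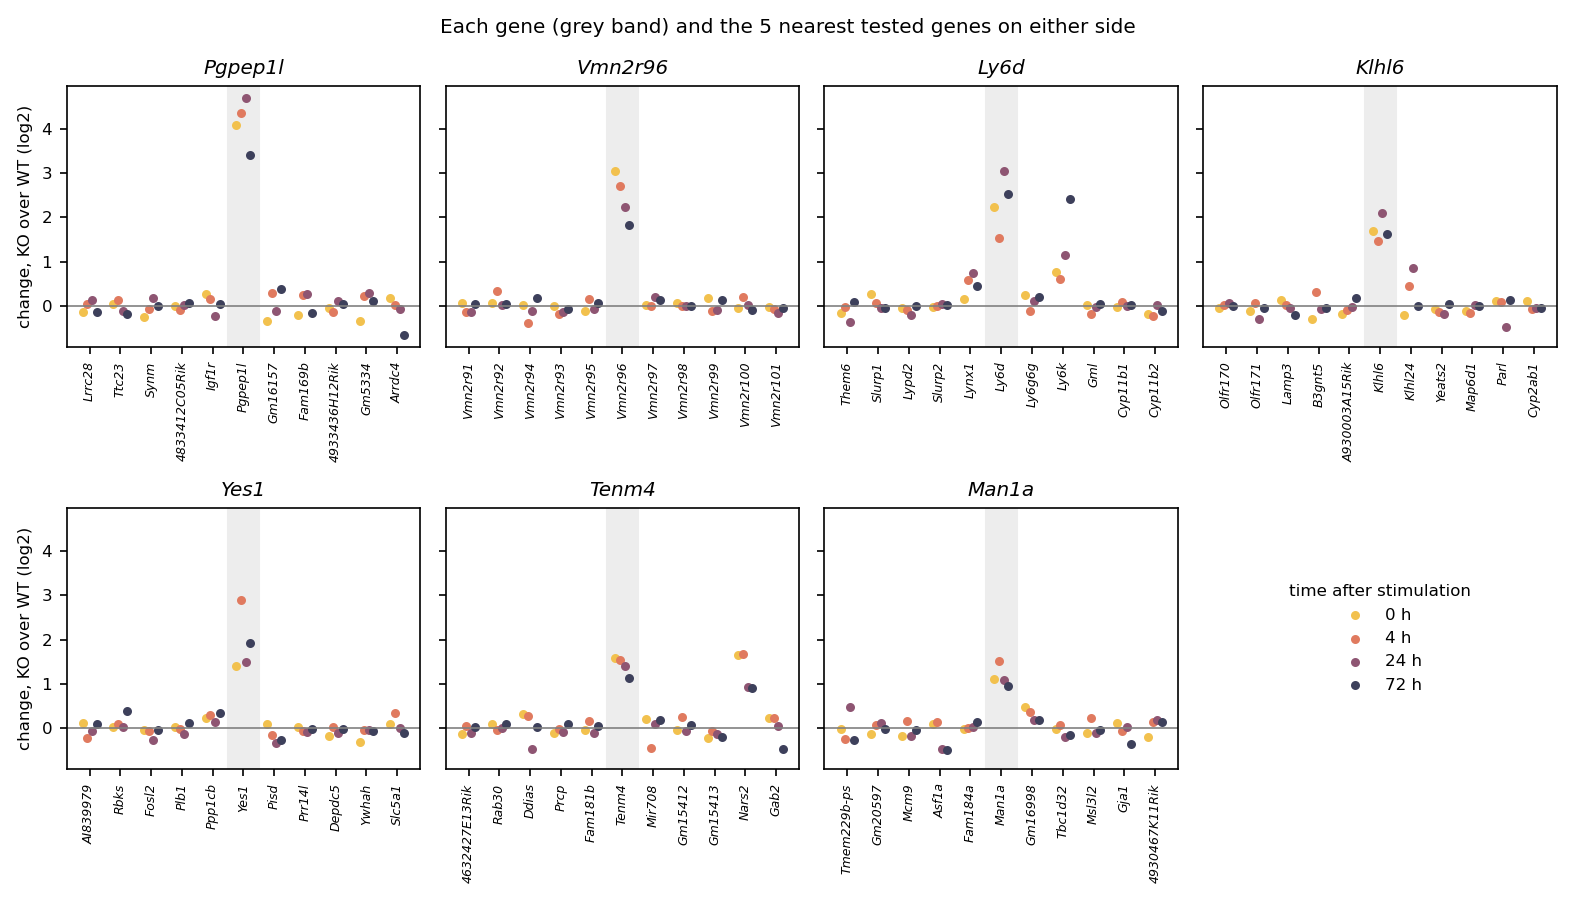
Difference between KO and WT (log2) of each of the 7 genes (grey band) and of the 5 nearest tested genes on either side, in RefSeq order and not to scale, with 1 point per time. Nars2 beside Tenm4 and Ly6k beside Ly6d stand out from the neighbours, with up to 1.66 and 2.42, and the 10 receptor genes around Vmn2r96 lie near 0. For Ly6k the mean of its probe sets, not drawn here, gave at most 1.24.

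Calls among relatives and partners of the 7 genes are set here beside all genes, of which 18.7% were called in either direction at any of the 4 times, 8.34% higher and 11.5% lower in KO. Of 108 other type 2 vomeronasal receptor genes, 3 were called at any time by limma: Vmn2r92 rose as given above, and Vmn2r84 (-0.59) and Vmn2r114 (-0.54) fell at 24 h. None of the 9 other genes of the teneurin list (teneurins and their latrophilin receptors) was called at any of the 4 times. Of the 37 other kelch-like genes, 3 were called higher and 4 lower at any time, or 7 genes, close to the share of all genes, among them Klhl22 (0.64 at 4 h), Klhl3 (0.47 at 72 h) and Klhl5 (-0.62 at 72 h) beside Klhl24. Of the 4 relatives of Pgpep1l, Qpct, the glutaminyl cyclase that makes pyroglutamyl ends, rose by 0.88 at 0 h (limma adjusted p = 0.000141). The list medians at the 4 times lay between -0.07 and 0.15 in each of these lists, beside -0.05 to 0.01 over all genes.

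In the Ly6 family 8 of 30 other genes and among N-glycan genes 7 of 19 were called at any time, beside the 18.7% of all genes. Of the 30 Ly6 family genes, 6 were called higher and 3 lower in KO, with Ly6c2 in both counts and Ly6k and Lynx1 among the 6. Ly6c2, a marker of memory-type T cells and monocytes, changed in KO by 1.26 and 1.47 at 4 and 24 h and by -1.73 at 72 h. Ly6c1 rose by 0.98 and 1.05 at 4 and 24 h, and Ly6i changed by -0.44 and -0.87 at 24 and 72 h. Ly6c1, Ly6c2 and Ly6i are close copies, and cross-hybridisation between them was not tested. Of the N-glycan genes 4 were called in each direction, with Mogs in both. Man2a2, the Golgi mannosidase that acts after Man1a, rose in KO by 0.49, 0.67 and 0.33 at 0, 4 and 72 h, B4galt1 and Mgat4a rose by 0.58 and 0.53 at 4 h, and the fucosyltransferase gene Fut8 changed by -0.31 and -0.55 at 24 and 72 h.

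In the list of Src kinases and their regulators, 6 of 14 genes other than Yes1 were called at any time, all higher in KO (beside 8.34% of all genes), and all 6 at 24 h (beside 3.9%). The phosphatase gene Ptpn22 rose by 0.80, the adaptor genes Sla2 and Sla by 0.75 and 0.44, the ubiquitin ligase gene Cblb by 0.54, the kinase gene Fyn by 0.30 and Ptprc, which encodes CD45, by 0.15 (limma adjusted p at most 0.00958). Most of these restrain signalling by the T cell receptor, Fyn and CD45 being the exceptions with positive roles. The list median at 24 h was 0.12, beside -0.05 over all genes. At 4 h, when the gap of Yes1 was widest, Sla2 alone was called (0.38).

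Of 26 measured genes of the silencing list (partners of TRIM28 and other silencing factors, without Trim28 itself), 13 were called at any time, 8 higher and 5 lower, beside 8.34% and 11.5% of all genes. The corepressor gene Trim24 rose in KO by 2.35, 0.75, 1.56 and 0.49 at the 4 times, Morc3, an ATPase of heterochromatin, by 1.19, 0.56 and 0.38 at 0, 4 and 24 h, and the histone methyltransferase gene Setdb1 by 0.29, 0.72 and 1.43 at 4, 24 and 72 h. The list medians, Trim28 included, were 0.11, 0.07, -0.06 and 0.10. Trim24 was the one gene of this list called higher at all 4 times, like the 7.

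Levels of the 7 genes were compared over the 24 arrays as a description, since all points share the genotypes and times. The closest pair was Pgpep1l and Man1a (Pearson r = 0.91) and the least close Klhl6 and Yes1 (r = 0.12). The search for the closest genes left out predicted genes, named Gm with a number, Rik or LOC. It also left out Mir and Snor genes and segments of T cell receptor and immunoglobulin genes. Of the remaining genes, Resf1, a retroelement silencing factor gene, followed both Vmn2r96 (r = 0.94) and Klhl6 (r = 0.95) most closely. Pgpep1l was followed most closely by Mbd1, a methyl-CpG binding protein gene (r = 0.92), Man1a by Prr5, a subunit gene of the mTORC2 complex (r = 0.91), and Yes1 by Acadm, which encodes medium-chain acyl-CoA dehydrogenase (r = 0.83). For Ly6d the closest gene was Foxp3, the transcription factor gene of regulatory T cells (r = 0.90). Next in likeness came Man1a and Vmn2r96 for Pgpep1l, Vps54 and Cacna1b for Vmn2r96, Man1a and Wdr82 for Ly6d, Cpm and Hdac4 for Klhl6, Gstt3 and Mindy3 for Yes1, Mindy3 and Pgpep1l for Tenm4, and Pgpep1l and Gstt1 for Man1a, with r between 0.82 and 0.94.

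Markers of other cell types differed between the genotypes, and B cells also express Ly6d and Klhl6. Of 13 measured B cell markers of 15 listed, 2, 0, 3 and 1 were called higher in KO by limma and none lower at 0, 4, 24 and 72 h, with medians of 0.74, 0.42, 0.46 and 0.35. Of all genes, 1.76%, 3.3%, 3.9% and 2.56% were called higher at these times, with medians of 0.00, 0.00, -0.05 and 0.01. The summed linear intensity of the 13 markers was 391 to 699, 279 to 441, 274 to 534 and 208 to 380 in KO, against 224 to 475, 183 to 340, 177 to 246 and 163 to 184 in WT. In RNA of a whole population, more cells of a type and more RNA per cell cannot be told apart. KO array 2 had the lowest sum of the KO arrays at every time. At 0 h Cd79a, a signalling chain of the B cell receptor, was at 7.20, 6.30 and 7.05 in KO, against 5.88, 4.87 and 6.63 in WT, and Ms4a1, which encodes CD20, at 4.62, 4.13 and 4.78, against 3.64, 3.23 and 4.10.

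When KO array 2, the lowest in B cell markers, alone stood for KO at each time, the KO over WT difference was 2.14, 1.61, 2.76 and 2.29 for Ly6d and 1.52, 1.38, 2.02 and 1.51 for Klhl6. With all 3 KO arrays these differences were 2.23, 1.53, 3.06 and 2.53 for Ly6d and 1.70, 1.46, 2.10 and 1.63 for Klhl6. The genes were chosen for these differences, the setting rests on 1 KO array per time, and the part of B cell RNA in the levels of the 7 genes was not tested. At 0 h the B cell marker sum of KO array 2 was 391, against 341, 224 and 475 in WT arrays 1, 2 and 3. At 4 h it was 279, against 215, 183 and 340. It was thus within the WT range but above WT arrays 1 and 2 at both times. Whether the setting removed an excess of B cell RNA at these times was not tested. The sum of KO array 2 lay above every WT array at 24 h (274 against at most 246) and 72 h (208 against at most 184), so the setting kept an excess of these markers there. For Tenm4 the same setting gave 0.91 at 0 h in place of 1.59.

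**Figure D5:**
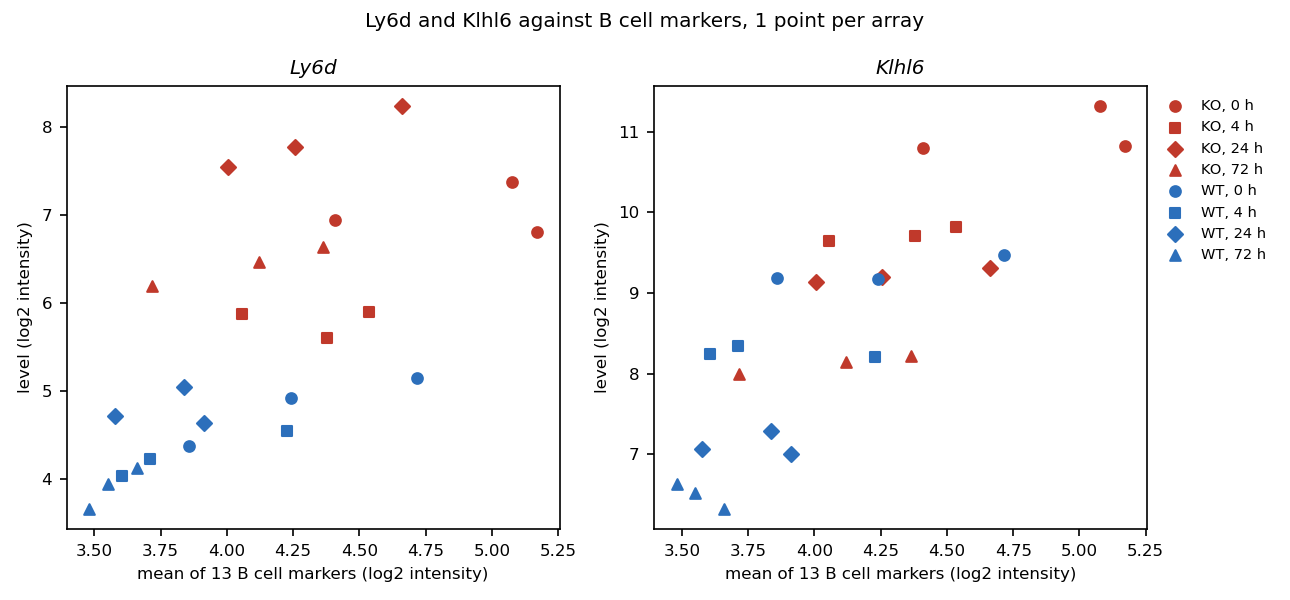
Level of Ly6d and of Klhl6 (log2 intensity) against the mean of 13 B cell markers (log2 intensity) in each of the 24 arrays, KO in red and WT in blue, with a symbol for each time. Ly6d lies between 5.60 and 8.24 in KO arrays and between 3.65 and 5.15 in WT arrays, and for Klhl6 the genotypes separate within a time.

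Regulatory T cell markers were higher in KO as well: of 6 genes, 3, 4, 3 and 2 were called higher (beside 1.76%, 3.3%, 3.9% and 2.56% of all genes) and none lower, with medians of 0.67, 0.88, 0.53 and 0.47. Their summed linear intensity was 511 to 672, 1556 to 1851, 2538 to 2889 and 3357 to 3446 in KO, against 328 to 350, 1402 to 1644, 2016 to 2140 and 2751 to 2955 in WT. Foxp3 rose in KO by 0.93, 1.63 and 2.49 at 4, 24 and 72 h (SE 0.24, limma adjusted p at most 0.024). At 0 h it was not called, although its KO arrays (7.87, 7.29 and 7.12) lay above its WT arrays (6.70, 6.58 and 6.71). In WT at 72 h Foxp3 was at 5.31, 5.06 and 5.95, lower than at 0 h, whereas the sum of the 6 markers was higher. The sum thus changed with stimulation and did not follow Foxp3 alone. Of 12 myeloid markers, 4 at 0 h and 3 at 4 h were called higher, among them S100a8, which was at 5.51 ± 1.31 in KO and 3.26 ± 0.53 in WT at 0 h (SD, n = 3). Of these 12, 1 was called lower, at 72 h. Of 5 plasmacytoid dendritic cell markers none was called higher, and 1, 1 and 2 were called lower at 4, 24 and 72 h, with sums of 603 to 850 in KO at 72 h, against 1367 to 1623 in WT. At 0 h these sums were 118 to 164 in KO and 125 to 182 in WT, so they too changed with stimulation. Of 5 measured markers of natural killer and innate lymphoid cells, 1 and 2 were called lower at 24 and 72 h and none higher, with sums of 42.5 to 46.0 in KO at 72 h, against 138 to 193 in WT. Of 2 CD8 T cell markers 1 was called lower at 24 h and at 72 h and none higher, and of 3 erythroid and platelet markers none was called in either direction at any time. Of all genes, 0.577%, 0.834%, 7.38% and 3.78% were called lower at 0, 4, 24 and 72 h. The part of regulatory T cell or myeloid RNA in the levels of the 7 genes was not tested.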

How the data were processed

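RNA of naive CD4 T cells was measured on 24 Affymetrix arrays, 3 for each of 8 groups of genotype and time, as given by the sample titles. The deposited values are log2 intensities made by the authors with R 3.1.0, RMA and oligo, as the submitters' processing notes name them. RMA corrects background, makes the distributions of all arrays equal and summarises probes, so a change shared by all genes is hidden and low levels are compressed. No detection calls, batch or date came with the values, and array medians lay between 3.59 and 3.76.

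The platform annotation named the probe sets: of 41345, 23521 had 1 gene symbol, 1814 several and 16010 none listed, and 23328 were matched by Entrez ID to the RefSeq table (GRCm38.p6), which gave current names and gene order. The probe set with the highest mean over all arrays stood for each of 1082 genes with several, which left 22180 genes.

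A limma 3.58.1 model (R 4.3.3) of 8 group means, with eBayes and a mean-variance trend (16 residual and 8.81 prior degrees of freedom), was fitted to all genes and tested two-sided on simulated data first. A gene was called at an adjusted p below 0.05 (Benjamini-Hochberg, over all genes). The number of arrays limits the precision. Genes were named by rule: the 7 genes, Trim28, genes ranked among them, the 3 most correlated genes of each, called neighbours, up to 4 called genes of each list with the largest changes, and Cd79a, Ms4a1 and S100a8; another marker named by the rule is not reported here. The most correlated genes were sought without predicted genes, Mir and Snor genes and segments of T cell receptor and immunoglobulin genes. Fyn, Ptprc, Mogs and Eif2s3y were named after their values were seen. The 7 genes and all lists were chosen with earlier results of these data known. Lists were the silencing factors, Src kinases, Ly6 family, kelch-like genes, teneurins, N-glycan genes, pyroglutamyl enzymes, type 2 vomeronasal receptors and cell type markers. Same-numbered KO and WT arrays deviated together with correlations of 0.03 to 0.17, above 0.1 in 6 of 12 pairs, and the numbers were not used as pairs in the main model. In all 12 pairs, however, the KO array correlated best with the WT array of its own number. The arrays numbered 3 also had the male signature. The number was used as a block in an alternative, and the main model leaves sex and number in the spread between arrays.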

Additional observations from a re-analysis of the deposited data

Results flagged for a closer look

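The difference between KO and WT changed with time for 3 of the 7 genes, by limma's interaction test over all genes. The test used the same arrays that chose the genes and is not independent of that choice. For Yes1, KO over WT was 1.51 higher at 4 h than at 0 h (log2, SE 0.24, adjusted p = 0.000956). For Man1a, it was 0.39 higher at 4 h than at 0 h (SE 0.09, limma adjusted p = 0.043). For Vmn2r96, it was lower at 72 h than at 0 h, with a difference of -1.22 (SE 0.33, limma adjusted p = 0.0304). The WT arrays of Vmn2r96 at 72 h were low on the scale (2.02 to 2.59), where RMA compresses changes, and those of Yes1 at 0 h were also low (3.12 to 3.60). Of 38 alternatives, 1 lost the call for Yes1, 22 that for Man1a and 9 that for Vmn2r96.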

How the results depend on the processing

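The choice of the 7 genes used their KO over WT calls, so repeating those calls supports nothing and is given as a description: the count called higher at all 4 times was 7 with any 1 array left out and 6 to 7 over all 38 alternatives. Tenm4 missed at 0 h when KO array 2 alone stood for KO (0.91, limma adjusted p = 0.0565) and at 72 h with the mean of its probe sets (0.43, adjusted p = 0.0568). Called responses to stimulation numbered 12 to 15 in KO (14 with all arrays) and 10 to 13 in WT (11). Over single arrays left out, the ranges were 12 to 15 in KO, 10 to 12 in WT, 1 to 4 for the 3 interactions, 7 to 10 for the 9 neighbours called higher and 37 to 55 for the 46 family genes called. Without number 2 in every group, 1 interaction and 25 family genes were called. Without number 3, 0 interactions (by limma at the same threshold) and 4 neighbours were called. With KO array 2 alone for KO, 1 interaction, 3 neighbours and 17 family genes were called, and with 10 neighbours on each side 17 were. One value turned: Tenm4 in KO at 72 h over 0 h was 0.79 with KO array 2 alone, against -0.14 with all arrays. Over all genes, those called higher in KO numbered 390, 732, 865 and 567 at the 4 times, and 105 to 457, 209 to 815, 223 to 1150 and 142 to 980 over the alternatives. Those called lower numbered 128, 185, 1636 and 838, and 28 to 204, 29 to 265, 249 to 1983 and 339 to 1269. Quantile normalization again moved the share of calls that were higher to 61.0%, 66.2%, 53.3% and 46.6%, against 75.3%, 79.8%, 34.6% and 40.4%. With the number as a replicate block, 7 genes were called at all 4 times, 14 responses in KO, 12 in WT, 4 interactions (the added one Ly6d at 24 h, adjusted p = 0.0392), 9 neighbours and 43 family genes, and every same-numbered pair of arrays correlated best with its own number. The causes were not tested beyond what each alternative leaves out.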
